A study of Mus musculus with 9 samples.

Results

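Wnt ligands, their receptors and antagonists, and the intracellular effectors of the pathway were measured by RNA-seq in 4T1 tumors grown in BALB/c mice. The 56 genes, of 22609 genes listed in the count tables, were taken by symbol. They comprise 19 Wnt ligands, 4 R-spondins, 12 receptors and co-receptors (Fzd1 to Fzd10, Lrp5 and Lrp6), 9 secreted antagonists (Sfrp, Dkk and Wif1), 5 intracellular inhibitors (Axin1, Axin2, Apc, Nkd1 and Nkd2), beta-catenin (Ctnnb1) with its 4 DNA-binding partners (Lef1, Tcf7, Tcf7l1 and Tcf7l2), and the CCN genes Wisp1 and Wisp2. 4T1 is a mouse mammary carcinoma line used as a model of triple-negative breast cancer, here injected at 500000 cells into the mammary fat pad of mice of its own strain, so tumors hold implanted cells of 1 line and host cells. The LFD group ate a low-fat diet (10 kcal% fat) and the HFD group a high-fat diet (60 kcal% fat), begun 6 weeks before injection and kept to the end, and both received the vehicle, 0.3% hydroxy propyl cellulose. The HFD + EC359 group ate the high-fat diet and received the LIFR inhibitor EC359 at 5 mg/kg on 5 days per week, given ip. There were 3 libraries per group, 9 in all, described as 9 tumors. The sources used here do not say whether each tumor came from its own animal, and p-values measure only the spread between these libraries.

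Wnt proteins are secreted lipid-modified ligands that bind Frizzled receptors, in the canonical branch together with the co-receptors Lrp5 or Lrp6. Binding stops a destruction complex built on Axin and Apc from marking beta-catenin for degradation, and beta-catenin then acts with the TCF/LEF proteins on target genes. Secreted frizzled-related proteins and Wif1 bind the ligands, most Dickkopf proteins bind the co-receptors, and R-spondins raise the amount of receptor at the cell surface. The pathway is known in the mammary gland for its role in ductal branching and in stem and progenitor cells, and its ligands also signal without beta-catenin through planar cell polarity and calcium branches.

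Library totals were 5085357 to 6509130 counts of read pairs with LFD, 7314704 to 7922852 with HFD and 8043649 to 9751201 with HFD + EC359. Depth thus differed between the groups without overlap, and raw counts of different groups are not on 1 scale. At these totals 3 counts, the limit that a count of 0 allows, equalled 0.308 to 0.59 CPM, for counting error alone. For this limit CPM is the count scaled to the library total. For the CPM of genes the total was also multiplied by a scaling factor per library (0.9622 to 1.027). The Wnt genes took 0.293% to 0.316% of the counts of a library. LFD replicate 1 stood apart somewhat from the other LFD libraries, with a mean chi-square per gene of 3.12 and 2.53 against them. The other pairs of libraries within a group gave 1.36 to 1.58, where 1 is counting error alone. Most libraries of a group thus differed by little more than counting error, and the adjusted p-values rest on this small spread. The 4T1 label was checked on epithelial genes. Krt8 averaged 599, 408 and 442 CPM in the LFD, HFD and HFD + EC359 groups, Epcam averaged 7.39, 1.37 and 5.05 CPM, and Krt7 and Krt19 lay near the limit of detection. In bulk tumor tissue, fewer cells of a type and less RNA per cell cannot be told apart, and this holds for every value below.

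A single ligand, Wnt7b, made up most of the Wnt message in these tumors. RPKM, counts scaled to the length of a gene's exons and to the size of the library, allows genes to be compared. On this scale Wnt7b averaged 63.9 over the 9 libraries and the next ligand, Wnt6, 5.72. Wnt7b made up 78.7% of the summed ligand RPKM with LFD, 70.5% with HFD and 77.7% with HFD + EC359. Wnt9a, Wnt5a and Wnt10a followed at 3.75, 3.17 and 2.76 RPKM. Dkk1, Dkk4 and Wnt8b had no count in any library.

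Among the receptors, Lrp5 (65.5 RPKM), Fzd7 (27.8 RPKM), Lrp6 (23.7 RPKM) and Fzd6 (23.4 RPKM) were the most abundant. Sfrp1 (18.2 RPKM) and Sfrp2 (11.3 RPKM) led the secreted antagonists, Axin1 (32.4 RPKM) and Apc (9.26 RPKM) led the intracellular inhibitors, and beta-catenin itself stood at 250 RPKM. Of the DNA-binding partners, Tcf7l1 was at 14.9 RPKM, Tcf7l2 at 11.9, Tcf7 at 5.52 and Lef1 at 5.24. Wisp2 and Wisp1, secreted matricellular proteins described as Wnt1-induced genes, were at 68.0 and 51.6 RPKM. The 4 R-spondins had 2 to 21 counts each over all 9 libraries.

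**Figure D1:**
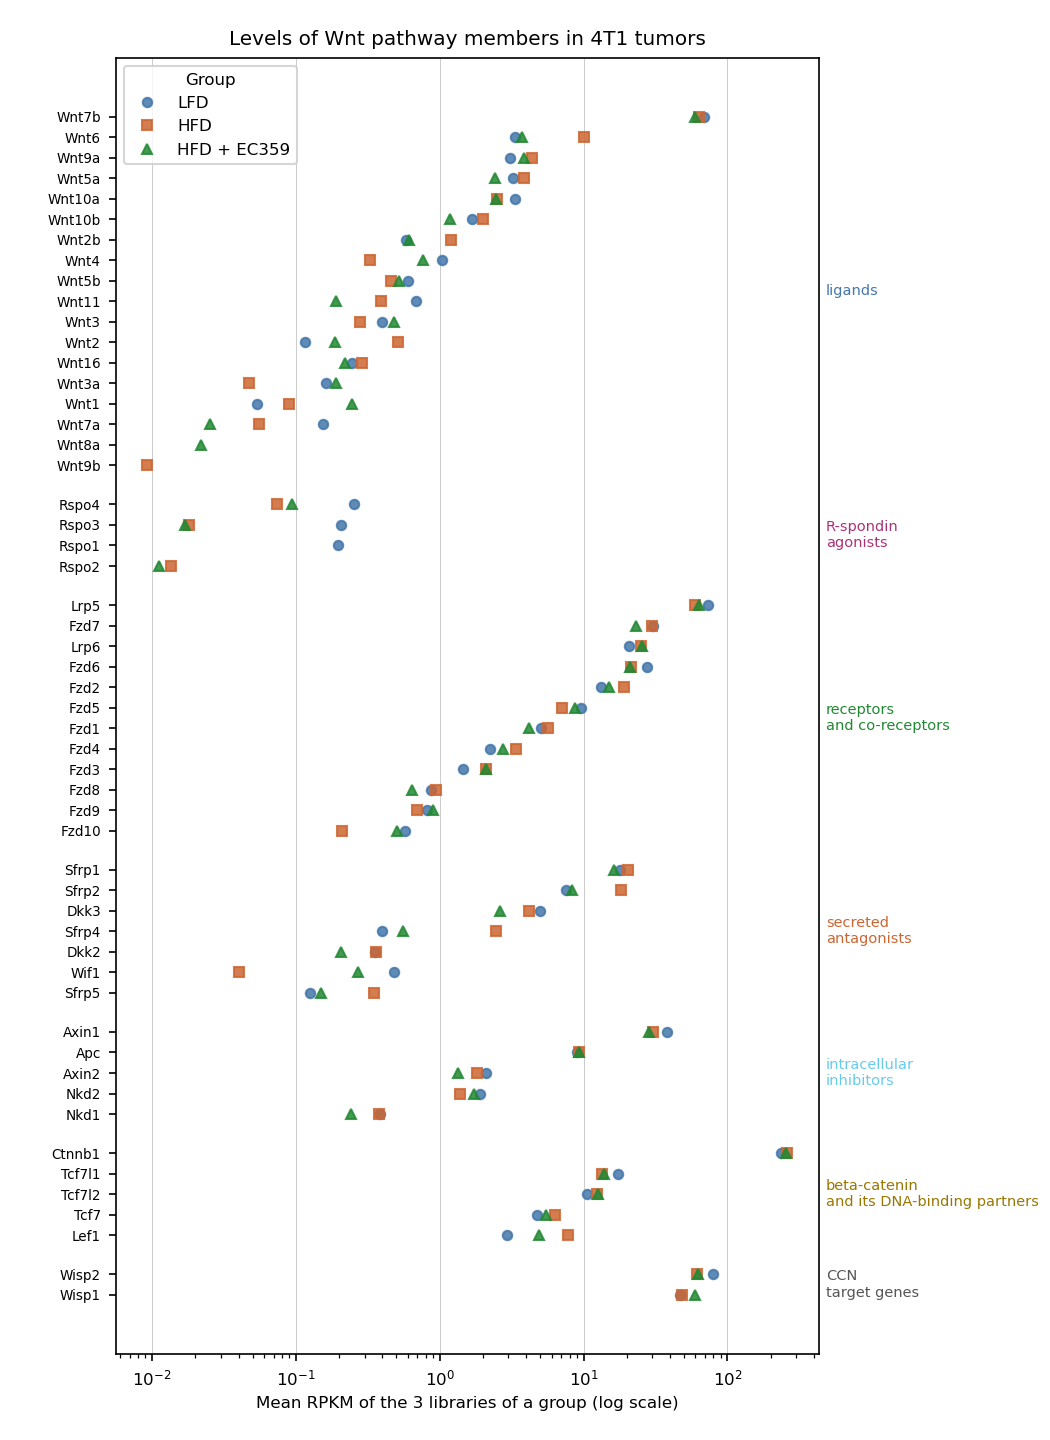
Mean RPKM of the 3 libraries of each group (log axis) for the 53 genes with a count in any library, ordered by role and level; a group with a mean of 0 has no point. Ctnnb1, Wnt7b, Lrp5, Wisp2 and Wisp1 lie highest, and Sfrp4, Wnt6, Sfrp2 and Lef1 have the HFD square to the right of the other 2 groups.

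The first question was how tumors differed between the 2 diets. Of the 56 genes, 40 had enough counts to be tested, and 16 did not and are given as counts only. With HFD, 6 of the 40 (15%) changed by more than 2-fold at an adjusted p below 0.01, against 5.71% of all 13366 genes tested. Sfrp4, Wnt6, Lef1, Sfrp2 and Wnt2b were higher (3.03% of all genes were) and Wnt4 was lower (2.68% of all genes were). At an adjusted p below 0.05 and any fold, which is what "rose" and "fell" mean here, 14 rose and 9 fell, where 26% of all genes rose and 25.8% fell. Together this was 57.5% of the 40, against 51.8% of all genes. The median log2 fold change was 0.04, against 0.01 for all genes tested. The libraries of the 2 groups did not overlap for 26 of the 40 genes, where this held for 57.1% of all genes.

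The comparison of EC359 with vehicle, both under HFD, asked how LIFR inhibition changed the same genes. With EC359, 4 of the 40 (10%) passed 2-fold at an adjusted p below 0.01, against 3.43% of all genes. Sfrp4, Wnt6 and Sfrp2 were lower (1.38% of all genes were) and Wnt4 was higher (2.06% of all genes were). At any fold 4 rose and 13 fell, or 42.5% against 26.6% of all genes tested, of which 12.7% rose and 13.9% fell. The median log2 fold change was -0.13, against 0.01 for all genes. The groups did not overlap for 22 of the 40 genes, against 41.3% of all genes. Both comparisons use the same 3 HFD libraries, so a chance deviation in those would appear in each with the opposite sign. Without LFD replicate 1, the counts past 2-fold were 6 and 4 again. In that fit 14 rose and 10 fell with HFD, and 5 rose and 14 fell with EC359. No share of all genes was taken for it.

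**Figure D2:**
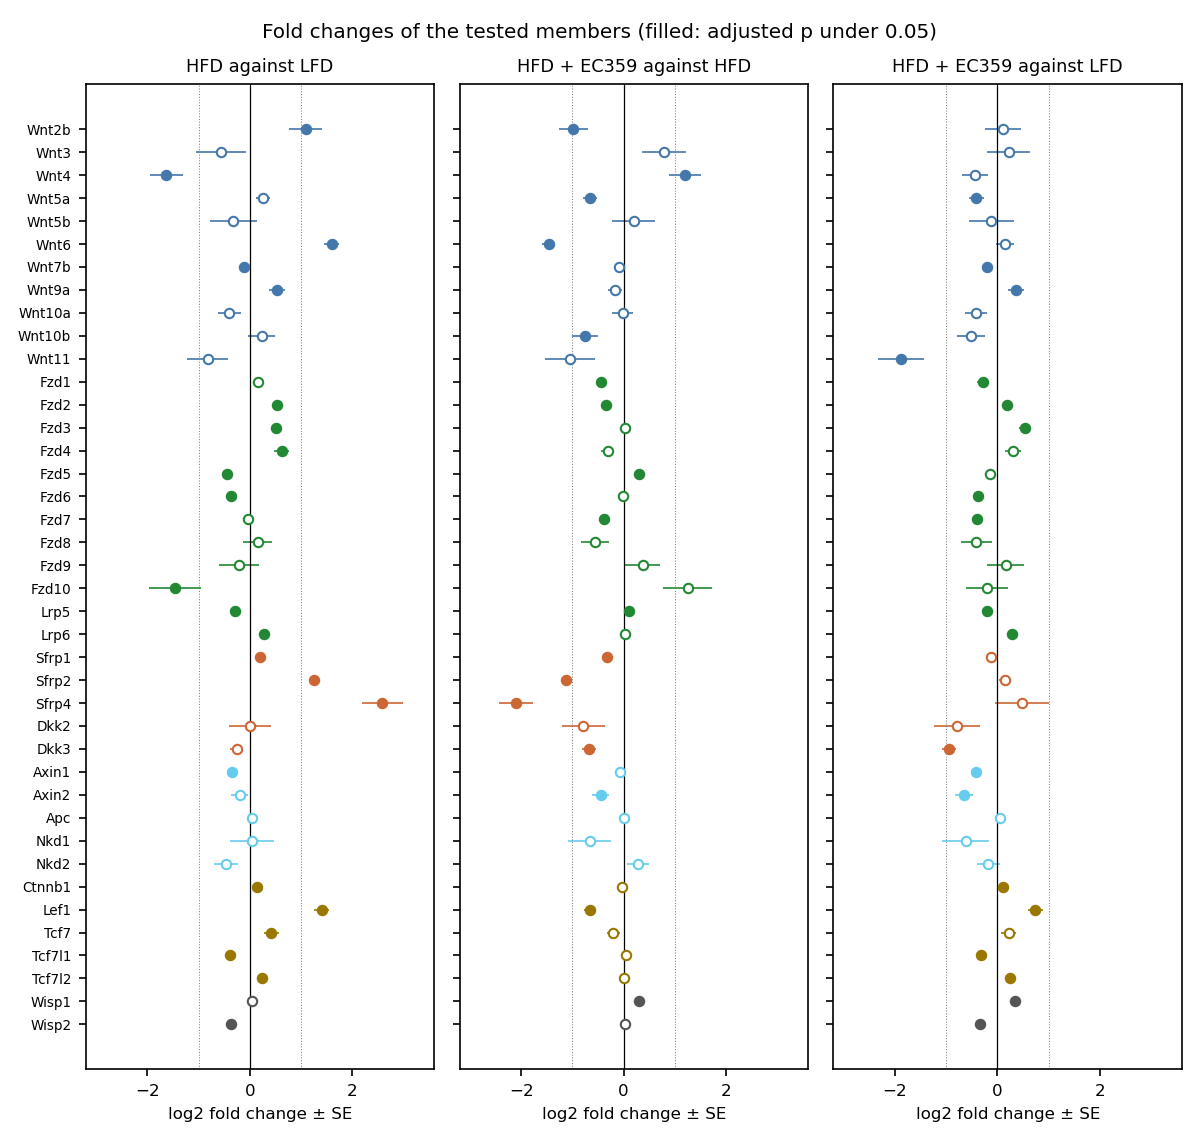
Log2 fold change with its standard error (edgeR, 3 libraries per group) for the 40 tested genes in the 3 comparisons, colored by role; filled points have an adjusted p under 0.05 and dotted lines mark 2-fold. With HFD Sfrp4 (2.58) lies farthest right and Wnt4 (-1.63) farthest left, and with EC359 Sfrp4 (-2.10) lies farthest left.

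Sequence upstream of the start site is shown for genes past 2-fold at an adjusted p below 0.01 in any of the 3 comparisons, since TCF/LEF proteins bind DNA at ATCAAAG and several Wnt genes are themselves targets of the pathway. The RefSeq promoter table of build GRCm38.p6, a later build than the mm9 of the counts, held 36 of the 56 genes and 6 of these 7, Sfrp4 not among them, and all 6 are shown. The 250 bases before the start are chr3:104961710-104961959 (minus strand) for Wnt2b, chr4:137277385-137277634 (plus strand) for Wnt4, chr1:74771642-74771891 (plus strand) for Wnt6, chr7:98834862-98835111 (plus strand) for Wnt11, chr3:83766071-83766320 (plus strand) for Sfrp2 and chr3:131110047-131110296 (plus strand) for Lef1, written 5' to 3' along the gene. Capitals mark ATCAAAG and its core CAAAG, or CTTTGAT and CTTTG on the other strand. Each full motif also counts as a core.
Wnt2b: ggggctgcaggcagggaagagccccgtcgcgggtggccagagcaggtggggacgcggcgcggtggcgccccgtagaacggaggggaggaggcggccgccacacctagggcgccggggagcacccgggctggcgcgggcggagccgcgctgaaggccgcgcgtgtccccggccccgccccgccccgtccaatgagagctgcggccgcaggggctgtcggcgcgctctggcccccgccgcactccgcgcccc
Wnt4: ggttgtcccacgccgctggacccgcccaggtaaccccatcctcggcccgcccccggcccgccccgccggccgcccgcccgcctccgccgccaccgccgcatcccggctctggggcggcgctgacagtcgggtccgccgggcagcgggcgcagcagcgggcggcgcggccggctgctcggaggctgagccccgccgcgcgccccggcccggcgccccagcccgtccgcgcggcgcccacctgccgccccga
Wnt6: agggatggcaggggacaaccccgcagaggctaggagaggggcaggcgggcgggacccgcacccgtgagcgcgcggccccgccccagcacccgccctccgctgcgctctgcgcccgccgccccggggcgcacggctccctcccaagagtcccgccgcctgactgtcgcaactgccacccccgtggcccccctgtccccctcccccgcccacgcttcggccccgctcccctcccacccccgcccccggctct
Wnt11: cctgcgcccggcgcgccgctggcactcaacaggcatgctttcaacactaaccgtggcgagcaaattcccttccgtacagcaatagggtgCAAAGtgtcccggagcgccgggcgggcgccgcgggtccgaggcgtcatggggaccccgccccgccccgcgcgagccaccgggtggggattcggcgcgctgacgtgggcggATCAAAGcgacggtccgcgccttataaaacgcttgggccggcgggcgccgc
Sfrp2: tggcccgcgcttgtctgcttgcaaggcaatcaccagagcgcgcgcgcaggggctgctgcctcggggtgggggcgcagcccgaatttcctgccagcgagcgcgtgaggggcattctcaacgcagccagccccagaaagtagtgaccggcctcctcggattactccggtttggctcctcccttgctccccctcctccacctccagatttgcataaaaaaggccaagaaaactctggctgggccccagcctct
Lef1: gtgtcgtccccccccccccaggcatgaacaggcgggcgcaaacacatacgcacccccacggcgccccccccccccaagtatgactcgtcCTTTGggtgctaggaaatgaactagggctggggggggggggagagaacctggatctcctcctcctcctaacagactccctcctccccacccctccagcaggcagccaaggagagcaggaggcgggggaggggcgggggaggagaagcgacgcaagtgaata

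ATCAAAG on either strand was present in 1 of the 36 upstream stretches (2.78%), that of Wnt11, and in 3.26% of the 27025 upstream stretches of all genes. The core CAAAG was present in 15 of 36 (41.7%), Lef1 and Wnt11 among them, and in 48.8% of all. LIFR signals through STAT3, and its motif TTCCNGGAA was in 0 of 36 and in 0.918% of all. These shares describe letters in 250 bases and say nothing of binding.

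Wnt6, a ligand of epithelial and mesenchymal development, had the largest change among the ligands that rose. It lies at chr1:74818466-74831893 (mm9, plus strand), 6699 bases before Wnt10a on the same strand. Its RPKM was 3.36, 3.26 and 3.41 in the LFD libraries, 10.7, 9.55 and 10.1 in the HFD libraries, and 3.92, 4.25 and 2.95 with HFD + EC359. Every HFD library lay above every library of the other 2 groups. Wnt6 was 3.03-fold higher with HFD than with LFD (log2 fold change 1.60, SE 0.148, edgeR adjusted p = 9.28e-11) and 2.75-fold lower with EC359 than with vehicle (-1.46, SE 0.129, edgeR adjusted p = 7.92e-11). Its neighbor Wnt10a changed by -0.40 (SE 0.219, edgeR adjusted p = 0.128) and -0.02 (SE 0.211, edgeR adjusted p = 0.962) on the log2 scale. Without HFD replicate 2 its change with HFD was -0.62 (edgeR adjusted p = 0.0361).

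Wnt4, a progesterone-induced ligand of the mammary epithelium, lies at chr4:136833550-136855416 (mm9, plus strand) and went the other way. It had 0.909, 0.943 and 1.24 RPKM in the LFD libraries, 0.395, 0.342 and 0.249 in the HFD libraries, and 0.729, 0.884 and 0.679 with EC359. The 3 groups did not overlap, with LFD highest and HFD lowest. Wnt4 was 3.1-fold lower with HFD (log2 fold change -1.63, SE 0.317, edgeR adjusted p = 6.2e-05) and 2.29-fold higher with EC359 (1.19, SE 0.31, edgeR adjusted p = 0.00378). The latter rests on 7 to 12 counts in the HFD libraries and 23 to 30 with EC359. It stayed above an adjusted p of 0.01, and below 0.05, in DESeq2 and without HFD replicate 2 or 3 or EC359 replicate 1 or 2 (1.03 to 1.22, adjusted p 0.0101 to 0.0288).

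Wnt2b, a canonical ligand at chr3:104747723-104764627 (mm9, minus strand), had 0.915, 0.351 and 0.493 RPKM with LFD, 1.20, 1.54 and 0.876 with HFD, and 0.746, 0.505 and 0.587 with EC359. LFD replicate 1 overlapped the HFD libraries. The log2 fold change was 1.09 with HFD (SE 0.319, edgeR adjusted p = 0.00458) and -0.98 with EC359 (SE 0.278, edgeR adjusted p = 0.00787). Single libraries decided these calls. Without LFD replicate 2 the HFD change was 0.80 (edgeR adjusted p = 0.0532), and without HFD replicate 2 the EC359 change was -0.77 (edgeR adjusted p = 0.0869), while without HFD replicate 3 it passed 2-fold (-1.16). The 2-fold call with HFD was also lost in DESeq2 (1.08, adjusted p = 0.0154) and without LFD replicate 3 or HFD replicate 1 or 2 (0.88 to 1.10, edgeR adjusted p 0.0133 to 0.0423).

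Wnt7b, the main ligand, at chr15:85365867-85412251 (mm9, minus strand), varied little. Its RPKM was 71.6, 66.1 and 68.7 with LFD, 63.8, 63.9 and 62.0 with HFD, and 60.7, 58.9 and 58.9 with EC359. The groups did not overlap and stepped down from LFD to HFD to HFD + EC359. The log2 fold change was -0.12 with HFD (SE 0.0395, edgeR adjusted p = 0.0116) and -0.09 with EC359 (SE 0.0385, edgeR adjusted p = 0.0899), the latter below 0.05 without LFD replicate 1 (-0.09, edgeR adjusted p = 0.0266). The HFD change did not hold in sign, and the step down did not hold either. Once the trend of each library with GC content and gene length was removed, as described below, it was 0.17 (edgeR adjusted p = 0.00042). In that fit HFD + EC359 against LFD was 0.23 (edgeR adjusted p = 3.25e-06). With libraries scaled by totals alone the HFD change was -0.08 (edgeR adjusted p = 0.0956). The EC359 change ran from -0.11 to 0.06 over the alternatives.

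Of the other ligands, Wnt5a, the main ligand of the branch without beta-catenin, had 3.06, 3.96 and 2.6 RPKM with LFD, 4.13, 3.64 and 3.76 with HFD, and 2.75, 2.29 and 2.29 with EC359. It fell with EC359 by 0.66 on the log2 scale (SE 0.133, edgeR adjusted p = 0.000267), and its change with HFD was 0.25 (edgeR adjusted p = 0.134), or 0.45 (edgeR adjusted p = 0.0159) without LFD replicate 2. Wnt9a rose with HFD (0.53, SE 0.151), though not without LFD replicate 2 (0.32, edgeR adjusted p = 0.089). Wnt10b fell with EC359 (-0.75, SE 0.25), though not in DESeq2 or without HFD replicate 2 or 3 or EC359 replicate 2 or 3 (-0.60 to -0.76, adjusted p 0.0652 to 0.124). In all, 3 of the 11 tested ligands rose and 2 fell with HFD (45.5%, against 51.8% of all genes). With EC359, 1 rose and 4 fell (45.5%, against 26.6%). The summed ligand RPKM was 83.8 to 91.2 with LFD, 87.7 to 91.3 with HFD and 75.1 to 78.2 with EC359.

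Wnt11 was lower with HFD + EC359 than with LFD. This ligand of the branch without beta-catenin lies at chr7:105987355-106003257 (mm9, plus strand), and its promoter with the TCF/LEF motif is printed above. It had 8, 14 and 11 counts with LFD, 10, 5 and 10 with HFD, and 6, 4 and 4 with EC359. These were 0.586, 0.787 and 0.695 RPKM, then 0.452, 0.235 and 0.488, then 0.261, 0.162 and 0.143. The log2 fold change of HFD + EC359 against LFD was -1.88 (SE 0.451, edgeR adjusted p = 0.000615). The steps from LFD to HFD (-0.82, edgeR adjusted p = 0.0836) and from HFD to HFD + EC359 (-1.05, edgeR adjusted p = 0.108) did not pass alone.

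The 8 untested ligands had 0 to 40 counts each over the 9 libraries. Wnt2, the most counted, had 1, 0 and 3 counts with LFD, 10, 9 and 6 with HFD, and 3, 2 and 6 with EC359. The R-spondins, whose Lgr receptors are described below, were not tested either. Rspo4 had 1, 9 and 1 counts with LFD, 1, 2 and 1 with HFD, and 1, 4 and 1 with EC359, and Rspo3 had 4, 2 and 2, then 0, 1 and 0, then 1, 0 and 0. Rspo1 had 2, 2 and 2 counts with LFD and 0 in all 6 libraries of the other groups, where 3 counts are the limit.

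The secreted antagonists held the largest rise under HFD, that of Sfrp4. Of their 5 tested members, 3 rose and 0 fell with HFD (60%, against 51.8% of all genes). With EC359, 0 rose and 4 fell (80%, against 26.6%). Secreted frizzled-related proteins carry a domain like the ligand-binding part of Frizzled. Sfrp4, at chr13:19715044-19724692 (mm9, plus strand), had 3, 6 and 3 counts with LFD, 31, 41 and 27 with HFD, and 8, 4 and 15 with EC359. As RPKM these were 0.349, 0.535 and 0.300, then 2.22, 3.05 and 2.09, then 0.551, 0.256 and 0.852. Every HFD library was above all 6 others. Sfrp4 was 5.98-fold higher with HFD (log2 fold change 2.58, SE 0.399, edgeR adjusted p = 2.16e-06) and 4.29-fold lower with EC359 (-2.10, SE 0.323, edgeR adjusted p = 5.68e-06).

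Sfrp2, at chr3:83570243-83578236 (mm9, plus strand), had 7.86, 7.44 and 7.30 RPKM with LFD, 17.8, 17.6 and 18.9 with HFD, and 8.72, 7.72 and 8.48 with EC359. The HFD libraries again lay apart, above both other groups. Sfrp2 was 2.4-fold higher with HFD (log2 fold change 1.26, SE 0.103, edgeR adjusted p = 5.33e-12) and 2.18-fold lower with EC359 (-1.12, SE 0.0911, edgeR adjusted p = 1.12e-11). Sfrp1, the most abundant of the family here, had 17.7, 16.4 and 19.5 RPKM, then 19.9, 20.8 and 20.9, then 16.5, 17.1 and 15.4. It rose by 0.20 with HFD (SE 0.0622), which was lost without LFD replicate 2 (0.13, edgeR adjusted p = 0.0936), and fell by 0.33 with EC359 (SE 0.0585, edgeR adjusted p = 4.8e-05) on the log2 scale.

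Dkk3, a Dickkopf family member that differs from the others in not binding the co-receptors, had 4.38, 4.62 and 6.03 RPKM with LFD, 4.32, 4.13 and 4.14 with HFD, and 2.53, 2.69 and 2.62 with EC359. The EC359 libraries were the lowest 3. Dkk3 fell with EC359 by 0.68 on the log2 scale (SE 0.134, edgeR adjusted p = 0.000185), and its change with HFD was -0.26 (SE 0.129, edgeR adjusted p = 0.0922), or -0.34 (edgeR adjusted p = 0.0424) without LFD replicate 1. Dkk2, at 5 to 12 counts, did not pass in either comparison. Wif1, untested, had 10, 2 and 5 counts with LFD, 0, 0 and 2 with HFD, and 5, 8 and 3 with EC359.

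Markers of fibroblasts rose with HFD, as Sfrp1, Sfrp2 and Sfrp4 did, but did not move as 1 set with EC359. The 10 fibroblast markers summed to 7952 to 9371 CPM with LFD, 13806 to 14537 with HFD and 4184 to 4295 with EC359, and none was at 0. All 10 rose with HFD, and 6 fell and 1 rose with EC359. The first 3, Col1a1, Col1a2 and Col3a1, changed by 0.71, 0.77 and 0.98 on the log2 scale with HFD and by -2.09, -2.06 and -1.98 with EC359. These collagens made up most of the sum. With EC359 Pdgfra rose (0.34), and Dcn (-0.12), Pdgfrb (-0.02) and Fap (-0.31) did not pass. Endothelial markers summed to 175 to 185, 329 to 353 and 286 to 298 CPM, with 6 of 6 rising with HFD and 4 falling with EC359. The part of these cells in the Wnt results was not tested.

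**Figure D3:**
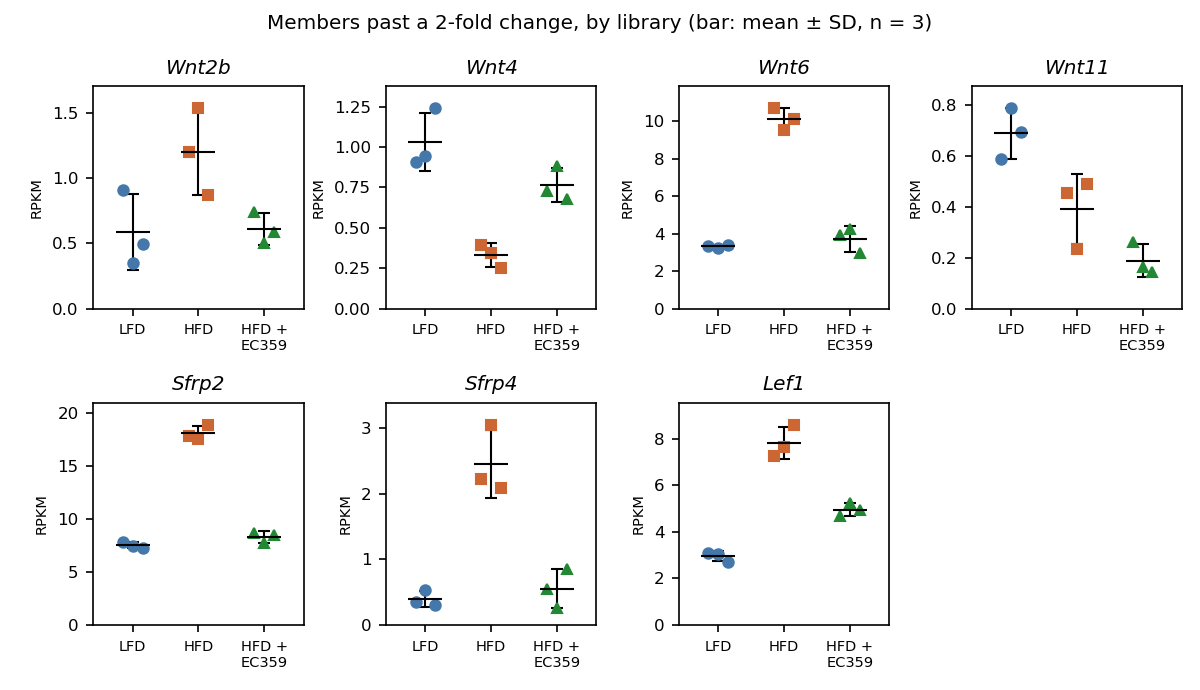
RPKM of each library (points) with the mean ± SD of 3 libraries (bars) for the 7 genes past 2-fold at an adjusted p below 0.01 in any comparison; each panel has its own axis from 0. Wnt6, Sfrp2 and Sfrp4 have all HFD points above the other groups, Wnt4 has them below, and Lef1 with EC359 lies between LFD and HFD.

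No receptor or co-receptor passed 2-fold at an adjusted p below 0.01 with HFD or with EC359, and those that passed at any fold moved in both directions. With HFD, Fzd2 (0.53, SE 0.0763), Fzd3 (0.51, SE 0.107), Fzd4 (0.62, SE 0.149) and Lrp6 (0.27, SE 0.0428) rose on the log2 scale, and Fzd5 (-0.44, SE 0.0713), Fzd6 (-0.37, SE 0.0527), Lrp5 (-0.29, SE 0.0365) and Fzd10 (-1.46, SE 0.511) fell. With EC359, Fzd1 (-0.45, SE 0.0977), Fzd2 (-0.35, SE 0.0691) and Fzd7 (-0.38, SE 0.0472) fell and Fzd5 (0.30, SE 0.0676) and Lrp5 (0.10, SE 0.0357) rose. Fzd2 and Fzd5 were thus the receptors that passed in both comparisons with opposite signs, beside Lrp5. The Lrp5 change with EC359 was lost in DESeq2, with RLE factors and with all genes of at least 1 count. It was also lost without any 1 library of the HFD or EC359 groups or LFD replicate 3. These values were 0.08 to 0.10 (adjusted p 0.0501 to 0.156). It held in 8 of 18 alternatives, where it reached 0.20.

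Lrp5 had 71.4, 74.5 and 73.4 RPKM with LFD, 60.0, 59.6 and 59.4 with HFD, and 63.5, 64.9 and 63.0 with EC359. Fzd7, a Frizzled often linked to triple-negative breast cancer, had 31.2, 28.3 and 31.8 RPKM with LFD, 29.7, 30.3 and 29.5 with HFD, and 23.6, 22.6 and 22.8 with EC359. Its EC359 libraries were the lowest 3, and the LFD and HFD libraries overlapped. Fzd10 rested on few counts, 10, 11 and 8 with LFD, 1, 4 and 9 with HFD, and 16, 13 and 11 with EC359. Its fall with HFD was lost without HFD replicate 1 (-0.97, edgeR adjusted p = 0.115) or 2 (-1.36, edgeR adjusted p = 0.0543) and was -2.36 without HFD replicate 3. Its change with EC359 was 1.25 (edgeR adjusted p = 0.0519), and below 0.05 in 6 alternatives, among them without HFD replicate 3 (2.14, edgeR adjusted p = 0.0103), LFD replicate 1 (1.25, edgeR adjusted p = 0.0369) or EC359 replicate 3 (1.44, edgeR adjusted p = 0.0479).

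Wnt4 and Fzd10 had their lowest mean with HFD, and the sums of the epidermal and of the epithelial markers were also lowest there. The 9 listed epidermal markers summed to 1136 to 1304 CPM with LFD, 184 to 198 with HFD and 552 to 562 with EC359, with 7 falling with HFD, 8 rising with EC359 and none at 0. Krt14 (means of 761, 40.6 and 237 CPM) and Krt5 (253, 30.5 and 143 CPM) made up most of the sum, which thus mainly follows these 2 keratins. Of the first 3, Krt1 averaged 81.1, 41.0 and 57.2 CPM, Krt10 52.5, 54.5 and 52.7 CPM, and Lor 11.0, 3.01 and 8.93 CPM. The 6 epithelial markers summed to 1113 to 1135, 705 to 714 and 763 to 791 CPM, with 4 falling with HFD and 3 rising with EC359. The part of skin or of epithelial content in these results was not tested.

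Beta-catenin, the central effector, changed little at the level of RNA. It had 219, 248 and 239 RPKM with LFD, 260, 259 and 261 with HFD, and 262, 255 and 249 with EC359. It rose with HFD (0.14 on the log2 scale, SE 0.0357, edgeR adjusted p = 0.0011) and changed by -0.03 with EC359 (SE 0.035, edgeR adjusted p = 0.599). Since beta-catenin is controlled through the stability of its protein, its RNA does not measure its activity.

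Lef1 was the DNA-binding partner that changed most. It lies at chr3:130813389-130926249 (mm9, plus strand) and is both a partner of beta-catenin and a known target of the pathway. Its RPKM was 3.08, 3.06 and 2.72 with LFD, 7.23, 7.62 and 8.59 with HFD, and 4.68, 5.23 and 4.92 with EC359, 3 groups with no overlap. Lef1 was 2.64-fold higher with HFD (log2 fold change 1.40, SE 0.141, edgeR adjusted p = 6.08e-10) and 1.58-fold lower with EC359 (-0.66, SE 0.114, edgeR adjusted p = 3.69e-05). It was also still higher with HFD + EC359 than with LFD (0.74, SE 0.15, edgeR adjusted p = 7.66e-05). Lef1 is also expressed by T cells, whose 8 markers summed to 16.3 to 22.4 CPM with LFD, 15.4 to 16 with HFD and 20.2 to 23.3 with EC359, with 2 falling with HFD and 1 rising with EC359. Of the first 3, Cd3e averaged 2.07, 1.87 and 2.77 CPM, and Cd3d and Cd3g were near the limit of detection. The part of T cells in the Lef1 result was not tested.

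The other partners moved less. Tcf7l1, a repressor in the absence of signal, had 17.3, 17.3 and 17.7 RPKM with LFD, 12.8, 14.2 and 13.3 with HFD, and 12.1, 14.7 and 14.9 with EC359. It fell with HFD (-0.38, SE 0.0863), while Tcf7 (0.42, SE 0.151) and Tcf7l2 (0.24, SE 0.0775) rose. None of these 3 passed with EC359 (0.05, -0.20 and 0.01). The rise of Tcf7 was lost in DESeq2 (0.41, adjusted p = 0.0596) and without LFD replicate 2 (0.24, edgeR adjusted p = 0.214) or HFD replicate 2 (0.34, edgeR adjusted p = 0.103), and that of Tcf7l2 without HFD replicate 2 (0.17, edgeR adjusted p = 0.0911).

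The intracellular inhibitors hold a negative feedback loop, since Axin2 and Nkd1 are known targets of beta-catenin. Axin2 had 2.02, 2.25 and 2.03 RPKM with LFD, 2.01, 1.51 and 1.98 with HFD, and 1.39, 1.43 and 1.22 with EC359. The EC359 libraries were the lowest 3, and HFD lay below LFD by a narrow margin. The log2 fold change was -0.20 with HFD (SE 0.17, edgeR adjusted p = 0.338) and -0.45 with EC359 (SE 0.168, edgeR adjusted p = 0.046). The latter was lost in 12 of 18 alternatives, DESeq2 (adjusted p = 0.141), the blocked fit (edgeR adjusted p = 0.0544) and the fits without any 1 of LFD replicate 3, HFD replicates 1 and 3 and EC359 replicates 1, 2 and 3 among them (-0.37 to -0.49, edgeR adjusted p 0.0504 to 0.182).

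Axin1, the constitutive scaffold of the destruction complex, had 40.5, 37.5 and 37.1 RPKM with LFD, 32.3, 30.5 and 27.9 with HFD, and 28.6, 29.6 and 27.9 with EC359. It fell with HFD by 0.34 on the log2 scale (SE 0.0532, edgeR adjusted p = 2.66e-06) and changed by -0.08 with EC359 (SE 0.052, edgeR adjusted p = 0.296). Over the 18 alternatives the HFD change of Axin1 ran from -0.39 to -0.15 and passed in each. Apc, which binds beta-catenin in the complex, had 8.73, 9.25 and 9.23 RPKM, then 9.6, 9 and 9.44, then 9.56, 9.31 and 9.20, which overlapped. Nkd1 and Nkd2, which bind Dishevelled, did not pass in either comparison.

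The CCN genes rose or fell by less than 2-fold. Wisp1 had 44.8, 47.8 and 48.1 RPKM with LFD, 45.1, 48.9 and 52.0 with HFD, and 57.0, 61.9 and 59.2 with EC359. It rose with EC359 (0.29 on the log2 scale, SE 0.0449, edgeR adjusted p = 6.9e-06), all EC359 libraries lying above the other 6, and changed by 0.05 with HFD (SE 0.0475, edgeR adjusted p = 0.393). Wisp2 had 85.8, 75.4 and 77.9 RPKM, then 60.9, 59.0 and 64.3, then 64.4, 63.5 and 60.6. It fell with HFD (-0.37, SE 0.0527, edgeR adjusted p = 4.72e-07) and changed by 0.03 with EC359 (SE 0.051, edgeR adjusted p = 0.705).

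Between HFD + EC359 and LFD, which differ in both diet and drug, 1 of the 40 genes (2.5%) passed 2-fold at an adjusted p below 0.01, against 5.09% of all genes (3.66% higher and 1.43% lower), and this was Wnt11, which was lower. At any fold 8 rose and 12 fell, or 50% against 58.3% of all genes (29.2% higher and 29.1% lower). The groups did not overlap for 21 of the 40, against 62.9% of all genes. Lef1 and Dkk3 (-0.94, SE 0.137, edgeR adjusted p = 5e-07) had the next largest changes past the test. Dkk3 was past 2-fold without LFD replicate 1 or 2 (-1.02 each). Lef1 was past 2-fold with a trend in GC content and length removed (1.03, with or without a replicate block). Axin2 (-0.65, SE 0.175), Axin1 (-0.42, SE 0.0526), Fzd7 (-0.40, SE 0.0491) and Fzd6 (-0.38, SE 0.0517) were lower and Wisp1 (0.34, SE 0.0464) was higher. The change of Axin1 was -0.15 at its smallest over the alternatives. Fzd3 (0.53, SE 0.104), Lrp6 (0.29, SE 0.0423) and Tcf7l2 (0.25, SE 0.0759) were also higher, and Tcf7l1 (-0.32, SE 0.0839), Wisp2 (-0.34, SE 0.0515), Wnt7b (-0.21, SE 0.0393) and Lrp5 (-0.20, SE 0.036) lower. With a trend in GC content and length removed from each library, Fzd3 (0.03), Lrp6 (0.09), Tcf7l2 (0.15), Tcf7l1 (-0.03) and Wisp2 (-0.05) no longer passed (edgeR adjusted p of 0.0737 to 0.818), and Wnt7b (0.23) and Lrp5 (0.10) were higher. Wnt6 (0.14, SE 0.174), Wnt2b (0.11, SE 0.355), Wnt4 (-0.44, SE 0.259), Sfrp2 (0.14, SE 0.114) and Sfrp4 (0.48, SE 0.528) did not pass, which does not show that their levels were equal. Wnt6 passed with the GC and length trend removed (0.59, edgeR adjusted p = 0.00429). Leaving out single libraries lost 5 further calls, with edgeR adjusted p of 0.0537 to 0.455 without them. Wnt5a (-0.41) was lost without LFD replicate 2 (-0.22) or EC359 replicate 2 or 3 (-0.37 each). Wnt9a (0.36) was lost without LFD replicate 2 (0.14), HFD replicate 3 (0.35) or EC359 replicate 2 (0.33) or 3 (0.31). Fzd1 (-0.29) was lost without LFD replicate 1 (-0.25) or 3 (-0.24), and under GC and length offsets (-0.05, edgeR adjusted p = 0.739), and Fzd2 (0.18) without LFD replicate 1 (0.13) or 2 (0.14), HFD replicate 3 (0.18) or EC359 replicate 2 (0.12). Ctnnb1 (0.11) was lost without EC359 replicate 1 (0.10). Other settings lost 3 of these calls too. Wnt9a was lost in DESeq2 (adjusted p = 0.111) and with the 6 libraries of the comparison alone (edgeR adjusted p = 0.0638). Fzd2 was lost in DESeq2 (adjusted p = 0.1), with RLE factors (edgeR adjusted p = 0.0528) and with those 6 libraries alone (edgeR adjusted p = 0.0677). Fzd1 was lost with library totals alone (edgeR adjusted p = 0.08).

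The libraries also differed with the base composition of genes, and small changes carry this limit. As the mean log2 CPM of genes under the lower quartile of GC content less that of genes over the upper quartile, centered over the 9 libraries, the shift was -0.536 to -0.317 in the LFD libraries, 0.105 to 0.156 with HFD and 0.254 to 0.302 with EC359. Exons of Fzd3 (40.3% GC), Apc (44.3%), Lrp6 (46.0%) and Tcf7l2 (47.0%) are poor in GC, and those of Wnt7b (61.8%), Lrp5 (58.6%), Tcf7l1 (57.5%) and Wisp2 (57.1%) are rich in it. With a trend in GC content and length removed from each library, the HFD changes of Fzd3 (0.09), Lrp6 (0.05), Tcf7l2 (0.13), Lrp5 (-0.09), Tcf7l1 (-0.16) and Wisp2 (-0.11) no longer passed, with edgeR adjusted p of 0.0513 to 0.566. Apc became lower with HFD (-0.24, edgeR adjusted p = 6.73e-05), and Fzd1 became higher (0.33, edgeR adjusted p = 0.00875). Wnt6 (61.4% GC), Sfrp2 (53.0%), Sfrp4 (50.7%), Lef1 (57.3%) and Wnt4 (55.4%) kept their 2-fold calls with HFD under this setting.

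A further 86 listed genes of the pathway, from ligand secretion to known targets, were followed, of which 68 were tested. With HFD 15 rose and 25 fell, where 26% of all genes rose and 25.8% fell, and with EC359 11 rose and 23 fell, where 12.7% rose and 13.9% fell. Together these were 58.8% of the 68 against 51.8% of all genes with HFD, and 50% against 26.6% with EC359. With the GC and length trend removed, 14 rather than 25 fell with HFD, and no share of all genes was taken for that fit. Past 2-fold at an adjusted p below 0.01 were 4 (5.88%) with HFD and 2 (2.94%) with EC359, close to the 5.71% and 3.43% of all genes. Lgr6, an R-spondin receptor, had 3.33, 2.6 and 3.3 RPKM with LFD, 6.74, 6.75 and 6.73 with HFD, and 3.11, 3.27 and 3.45 with EC359. It rose with HFD (1.14, SE 0.121) and fell with EC359 (-1.04, SE 0.107; -0.93 with the GC trend removed), while the R-spondins themselves were barely counted. Ror2, a Wnt5a receptor, had 1.03, 1.03 and 1.20 RPKM, then 1.97, 1.58 and 1.61, then 0.427, 0.880 and 0.704, and fell with EC359 (-1.34, SE 0.221, edgeR adjusted p = 1.67e-05). Its rise with HFD (0.67, SE 0.224) was lost without HFD replicate 1 (0.56, edgeR adjusted p = 0.0717).

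The planar cell polarity list held the other 3. The cadherins Celsr2 (-1.91, SE 0.107) and Celsr1 (-1.30, SE 0.0948) fell with HFD and rose with EC359 (0.93, SE 0.112, and 0.48, SE 0.0969), Celsr2 past 2-fold without HFD replicate 3 (1.02). Prickle1 rose with HFD (1.03, SE 0.104; 0.87 without LFD replicate 2) and fell with EC359 (-0.99, SE 0.0946), past 2-fold without HFD replicate 2 (-1.02) or EC359 replicate 1 (-1.07). Celsr2 had 3.74, 3.82 and 3.71 RPKM with LFD, 0.956, 0.918 and 1.12 with HFD, and 1.86, 1.85 and 1.99 with EC359. Its group means had the same order as those of Wnt4 and of the summed epithelial markers, a sum made up mostly of Krt8 and Krt18. Of the 13 tested known targets of beta-catenin, 1 rose and 6 fell with HFD (53.8%, against 51.8% of all genes) and 2 rose and 6 fell with EC359 (61.5%, against 26.6%). Ccnd1, cyclin D1, the most abundant of these, fell in both (-0.18, SE 0.0298, and -0.16, SE 0.0296), and Wls, the carrier of Wnt proteins to the cell surface, rose in both (0.53, SE 0.0576, and 0.26, SE 0.0517).

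The most abundant genes of the other lists changed by less than 2-fold. Igfbp4, an inhibitor at the receptor, fell with HFD (-0.66, SE 0.0427), as did the receptor Ptk7 (-0.35, SE 0.0423) and the polarity scaffold Scrib (-0.57, SE 0.0444). Over the alternatives these were -0.38, -0.11 and -0.35 at their smallest, and all still passed. Aes, a corepressor, rose with HFD (0.27, SE 0.0432), and so did the kinase Csnk1a1 (0.32, SE 0.0474), whose change was 0.05 (edgeR adjusted p = 0.365) with the GC trend removed. Znrf3, a ligase that removes Frizzled receptors, changed by 0.00 (SE 0.0785) with HFD and -0.09 (SE 0.0737) with EC359. With EC359, Ptk7 (-0.11, SE 0.0417) and Scrib (-0.15, SE 0.0445) fell, and both changes no longer passed with the GC trend removed (0.001 and -0.03). That of Scrib was also lost without HFD replicate 2 or EC359 replicate 3 (-0.14 each), and that of Ptk7 without HFD replicate 1 or 2 or any 1 EC359 library (-0.09 to -0.12).

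**Figure D4:**
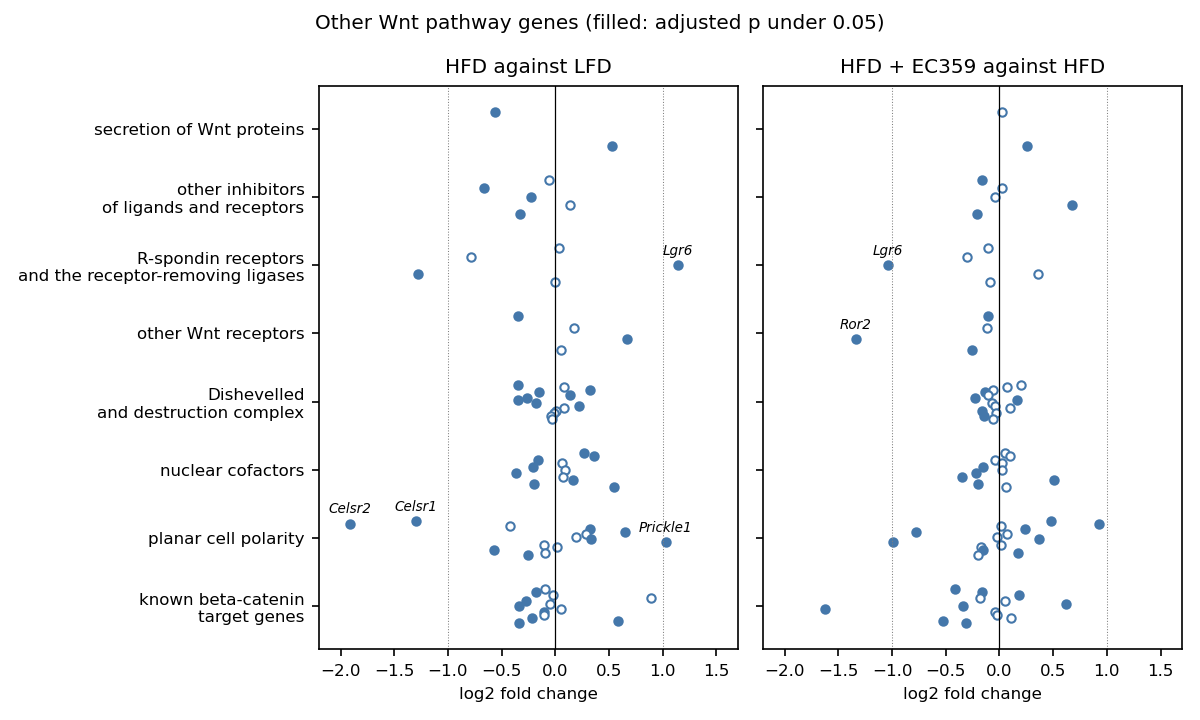
Log2 fold change of the 68 other tested Wnt pathway genes by list, with HFD against LFD at left and HFD + EC359 against HFD at right; filled points have an adjusted p under 0.05, and named genes are past 2-fold at an adjusted p below 0.01. Celsr2 (-1.91) and Lgr6 (1.14) are the ends of the named genes at left, and Ror2 (-1.34) and Lgr6 (-1.04) are named at right.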

How the data were processed

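RNA-seq of 9 libraries (LFD, HFD and HFD + EC359, 3 each) was analysed. For each gene the authors deposited expected counts, which per the file headers came from featureCounts 1.5.0-p1 on mm9, counted by strand at a mapping quality of at least 2, with pairs of several positions or genes split into fractions and no normalization. The submitters' processing notes also name HISAT2 2.1.0, while the study's methods name TopHat2 and HTSeq; the file headers were followed. No other gene overlapped the exons of these genes on the same strand.

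Counts were rounded to whole numbers and tested in R 4.3.3 with edgeR 4.0.16 (filterByExpr, TMM factors, quasi-likelihood test, 1 fit of all 9 libraries, Benjamini-Hochberg adjustment over the 13366 genes tested). The 2-fold threshold with adjusted p below 0.01 is that of the study's methods. RPKM used TMM-scaled totals and the exon lengths of the deposited tables. Alternatives were DESeq2 1.42.0, RLE factors, library totals alone, no filter beyond 1 count, at least 10 counts in every library, the 6 libraries of a comparison alone, a replicate block, GC and length offsets (loess, span 0.3), and each library left out in turn. The test was checked on simulated counts. These had independent libraries and no GC difference between groups, so the check does not cover those limits.

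Values in every library are given for genes past 2-fold and for the 2 most abundant of each role, and for others the fold change. Library values of Wnt2, Rspo1, Wif1, Fzd10, Wnt5a, Dkk3 and Axin2 were added after they were seen. The genes and lists were chosen with earlier results of these data known. A permutation of 3 libraries against 3 cannot reach an exact p under 0.1, so tests share the spread across genes.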

Additional observations from a re-analysis of the deposited data

How the results depend on the processing

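The 2-fold calls of Sfrp4, Wnt6, Sfrp2 and Lef1 with HFD, and those of Sfrp4, Wnt6 and Sfrp2 with EC359, held in every alternative in which the gene was tested. Requiring at least 10 counts in every library left 30 of the 40 genes and, by its own construction, 3 such calls with HFD, 2 with EC359 and 0 for HFD + EC359 against LFD. In the last comparison the count was 2 with GC and length offsets, with or without the replicate block, and 1 to 2 with a library left out. Among the other pathway genes, that comparison gave 1 call with all genes of at least 1 count and with GC and length offsets (with or without the block), and 0 to 1 with a library left out, against 0. The same offsets reduced the other pathway genes that fell from 25 to 14 with HFD (14 with the block) and from 32 to 20 (19 with the block) for HFD + EC359 against LFD. No share of all genes was taken under these offsets.

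Of 2818 values of single genes under alternatives, 2675 did not cross the threshold, 101 calls were lost and 28 gained, and 14 values that passed in either fit changed sign, all 14 with GC and length offsets. Changes of sign among values that passed in neither fit are not counted here. These were Wnt7b (0.17 with HFD and 0.23 for HFD + EC359 against LFD), Lrp5 (0.10, or 0.11 with the block, for HFD + EC359 against LFD), Apc (-0.24, or -0.25 with the block, with HFD and -0.26 for HFD + EC359 against LFD), Ptk7 (0.001, or 0.002 with the block, with EC359) and Csnk1a1 (-0.07 for HFD + EC359 against LFD). The cause of the GC difference between groups was not tested, and it cannot be told apart from diet and drug.

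Same-numbered libraries of different groups did not deviate together (correlations -0.0297 to 0.017), so no sign of pairing by number was seen. Most libraries of a group differed by little more than counting error, so such correlations could hardly show a pairing and do not exclude it. A replicate block changed 1 call, Axin2 with EC359 (-0.45, edgeR adjusted p = 0.0544). It gave 6 2-fold calls with HFD, 4 with EC359 and 1 for HFD + EC359 against LFD, as without it. Genes under about 10 counts per library, such as Sfrp4 with LFD, Wnt11 and Fzd10, have errors that allow only large differences to be seen.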
